A study of Dichomitus squalens with 6 samples.

Results

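The genes described here are the well expressed gene models of Dichomitus squalens that are annotated with 1 exon. Of the 15295 gene models in the annotation deposited by the authors, 1967 (12.9%) have exactly 1 exon feature. Of these, 1728 had a whole expected count in all 6 libraries, 1704 of the 1728 lie outside scaffolds 52, 68 and 77, and 147 of the 1704 had a mean of at least 50 FPKM (fragments per kilobase, scaled to library size) over the 6 libraries. The models were thus chosen by their measured level, and their levels are given as a description with no test.

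D. squalens is a white-rot basidiomycete. The monokaryotic wild type strain CBS 464.89 was cultured for 5 days at 28 °C on plates of 1.5% agar with a low-nitrogen medium that contains asparagine and succinate, and mycelium was collected. The 3 groups of 2 libraries differ in the added sugar, at 25 mM. These are cellobiose, a glucose disaccharide of cellulose, L-rhamnose, a deoxyhexose of pectin, and xylose, the pentose of the xylan backbone. All 3 groups share the strain, the medium, the temperature and the time, and no plate without an added sugar was analysed here. The study looked for regulators that could act in the breakdown of plant biomass. Nothing in the labels tells whether replicates are separate plates. The p-values therefore cover the variation among these 6 samples and no more, and that variation may be technical. In RNA from whole mycelium, fewer cells that express a gene and less RNA per cell cannot be told apart.

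In eukaryotes, most messenger RNAs are made from a longer copy of the gene from which the spliceosome removes introns. Basidiomycete genes usually carry several short introns, and genes without any are the exception. Well known single-exon genes of other eukaryotes include the replication-dependent histone genes of animals, whose messages are short and made in large amounts. Whether a model has 1 exon depends on the annotation, which also places untranslated regions (UTRs, the parts of a message before and after the coding sequence). The deposited files do not pair the identifiers of these models with product names, so the genes are given by identifier or scaffold position, with no function. Positions are those of the deposited annotation of this strain.

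The 6 libraries held totals of 7306517 to 8126006 expected counts. The numbers in the deposited FPKM follow from the expected counts, the coding length less 36 bases, and 1 scale per library, to within 1% for 100% of the models with enough counts. Taking 36 bases off raises the level of a short model more than that of a long one. Per whole coding length, 132 of the 147 models would still reach a mean of 50 FPKM. All 147 passed the filter on low counts, since the level chose them, and the lowest count of any of them in any library was 25.

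Single-exon models were far less often well expressed than spliced ones. Of the 1704 eligible single-exon models, 8.63% reached 50 FPKM, against 28.0% of 12037 models with 2 or more exons under the same rule. The median over the eligible models was 3.08 FPKM for single-exon and 22.6 FPKM for spliced models. These 2 sets were not matched for length, and their median coding lengths were 354 and 1032 bases. A value of 0 in all 6 libraries was listed for 239 (14.0%) of the single-exon and 587 (4.88%) of the spliced models. The 3369 spliced models that reached 50 FPKM serve below as the comparison. Their shares were computed within strata of level and coding length and then weighted by the number of single-exon models in each stratum, which is what "of the same level and length" means.

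The 147 models were short. Their coding length ranged from 159 to 1719 bases with a median of 456 bases, against a median of 978 bases in the spliced models. A coding length of at most 300 bases was found in 39 of them, over 300 and up to 600 bases in 59 and over 600 bases in 49. They lie on 82 scaffolds. A UTR was annotated for 124 (84.4%), against 73.3% of the spliced models of the same level and length.

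Many of them overlap another gene model. The span of 64 of the 147 (43.5%), UTRs included, overlaps the span of another model, against 31.9% of the spliced models of the same level and length and 24.1% of the eligible single-exon models under 50 FPKM. An overlap on the same strand was found for 47 of them (32.0%), against 12.4% of the spliced models of the same level and length. An overlap on the opposite strand was found for 22 (15.0%), against 21.4%. In 4 of the 49 same-strand pairs the single-exon model lies within the span of the other model, and the remaining pairs meet at an end. The 83 models without overlap had a median gap of 264 bases to the nearest model, against 257 bases in the spliced models without overlap. In none of the 147 did the coding sequence share a base with the coding sequence of another model. In 27 of them (18.4%) all or part of it lies in an exon of another model outside that model's coding sequence, that is, in an annotated UTR. Whether the counting used the strand of a read is not given in the sources used here, so reads from such a UTR and from the coding sequence it covers cannot be told apart, and the values of these 27 models are uncertain.

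**Figure D1:**
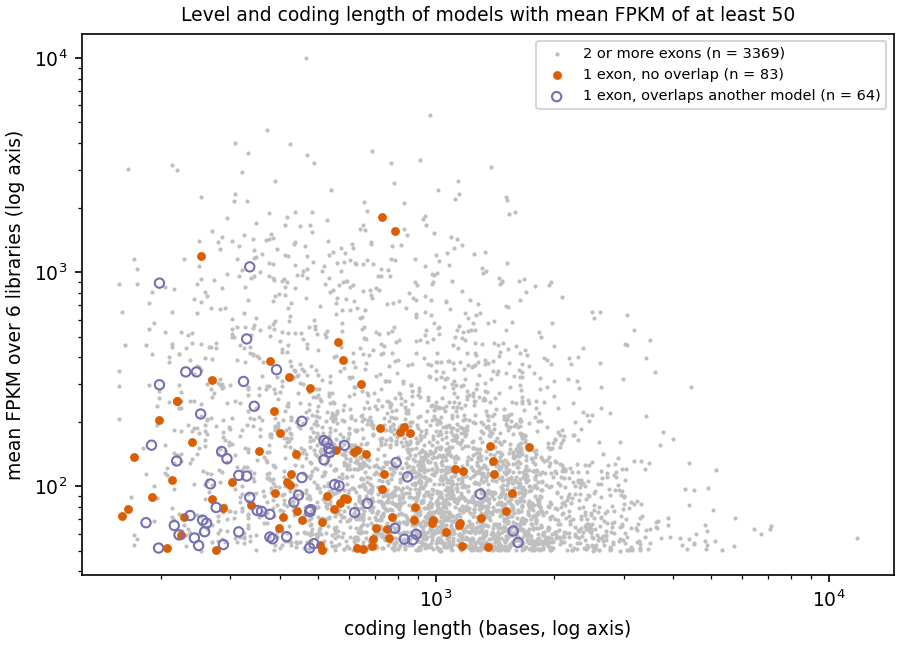
Mean FPKM over 6 libraries against coding length in bases, both on log axes, for the 3369 spliced models and the 147 single-exon models of at least 50 FPKM, with the 64 single-exon models that overlap another model drawn as open circles. The single-exon models lie mostly below 600 bases of coding length, and the overlapping ones are found at all levels.

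Most of the 147 were moderately abundant and a few dominated. Their mean FPKM ran from 50.3 to 1811, with quartiles of 67.4, 89.7 and 151, against a median of 104 in the spliced models. Between 50 and 100 FPKM lie 79 of them, 43 between 100 and 200 FPKM, 18 between 200 and 400 FPKM, 2 between 400 and 800 FPKM, and 5 above 800 FPKM. Together they took 2.33% and 2.08% of all FPKM with cellobiose, 2.42% and 2.46% with L-rhamnose, and 2.45% and 1.90% with xylose. In this share the xylose libraries overlap both other groups, while both L-rhamnose libraries lie above both cellobiose libraries. In each library the 5 highest models made up 23.1% to 32.9% of that sum.

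The median model was lower in both xylose libraries than in the other 4. The median over the 147 was 95.2 and 93.7 FPKM on cellobiose, 99.8 and 98.4 FPKM on L-rhamnose, and 77.4 and 77.6 FPKM on xylose. In the spliced models the median was 104 and 104 FPKM on cellobiose, 95.6 and 91.1 FPKM on L-rhamnose, and 105 and 104 FPKM on xylose. The 2 sets of models thus ordered the sugars differently, with L-rhamnose highest in the single-exon models and lowest in the spliced ones.

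The 5 models with the highest mean came from 5 scaffolds. At scaffold 12, 314761 to 315953, the model had 2844 and 1109 FPKM on cellobiose, 1945 and 3425 FPKM on L-rhamnose, and 941 and 605 FPKM on xylose. Both xylose libraries were below the other 4, and L-rhamnose minus xylose was a log2 change of 1.66 ± 0.51 (SE; edgeR quasi-likelihood test, adjusted p = 0.0461). It did not pass without L-rhamnose replicate 1, L-rhamnose replicate 2 or xylose replicate 2 (edgeR adjusted p = 0.0880, 0.220 and 0.0923). Next came a model at scaffold 35, 108756 to 109868, which had 1845 and 1866 FPKM on cellobiose, 905 and 1220 FPKM on L-rhamnose, and 2414 and 1099 FPKM on xylose, and passed the test in no comparison. The groups of L-rhamnose and xylose overlap there.

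The model at scaffold 6, 468422 to 468673, has 252 coding bases, no annotated UTR and no overlap with another model. It had 1131 and 1056 FPKM on cellobiose, 2088 and 1483 FPKM on L-rhamnose, and 529 and 808 FPKM on xylose. The 3 sugars did not overlap, and L-rhamnose minus xylose was 1.27 ± 0.26 (log2, SE; edgeR adjusted p = 0.0124), while L-rhamnose minus cellobiose was 0.68 ± 0.25 with an edgeR adjusted p of 0.0942. Without L-rhamnose replicate 1 the first of these was 1.04 with an edgeR adjusted p of 0.0840. Another short model, at scaffold 163, 51695 to 51993, had 475 and 464 FPKM on cellobiose, 1920 and 1074 FPKM on L-rhamnose, and 659 and 735 FPKM on xylose. All of its L-rhamnose values were above all others, but 148 of its bases lie in the 3′ end of a same-strand neighbour of 957 FPKM on average, and its coding sequence lies partly in that neighbour's UTR.

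A level of at least 50 FPKM on every sugar was reached by 93 of the 147, on 2 sugars by 43, and on 1 sugar by 11, namely 7 on L-rhamnose, 3 on xylose and 1 on cellobiose. For 17 the mean was under 50 FPKM when their highest library was left out. The mean was highest on L-rhamnose in 68 models (46.3%), on cellobiose in 46 (31.3%) and on xylose in 33 (22.4%). The spliced models of the same level and length split into 33.6%, 37.2% and 29.3%. The median ratio of the highest to the lowest sugar was 1.94 in the single-exon models and 1.58 in the spliced models of the same level and length.

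A part of the set was steady. The ratio of highest to lowest sugar was under 1.5 in 48 models (32.7%), against 42.3% of the spliced models of the same level and length. One at scaffold 59, 103680 to 105511, with 1506 coding bases, had 71.4 and 78.1 FPKM on cellobiose, 81.5 and 77.9 FPKM on L-rhamnose, and 81.7 and 69.5 FPKM on xylose. All 6 libraries of it were within a ratio of 1.18. The model at scaffold 10, 524101 to 525182, was steady at a higher level, with 423 and 407 FPKM on cellobiose, 344 and 398 FPKM on L-rhamnose, and 381 and 350 FPKM on xylose.

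At the other end, the ratio passed 10 in 4 models (2.72%), against 4.82% of the spliced models of the same level and length. In 3 of the 4, xylose replicate 1 was the highest library. The model at scaffold 130, 54674 to 56072, had 10.1 and 11.3 FPKM on cellobiose, 33.2 and 38.3 FPKM on L-rhamnose, and 321 and 10.99 FPKM on xylose. Another at scaffold 84, 8741 to 9628, had 36.7 and 93.8 FPKM on cellobiose, 300.3 and 503 FPKM on L-rhamnose, and 1281 and 106 FPKM on xylose. The 2 xylose libraries of each of these models lie far apart, and neither model passed the test in any comparison. Replicates were at least 2-fold apart in 5 models for cellobiose, 4 for L-rhamnose and 11 for xylose, and in 8 of the 11 xylose replicate 1 was the higher. These are 3.4%, 2.72% and 7.48% of the models, against 2.74%, 2.18% and 10.2% of the spliced models of the same level and length.

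The rule for membership left models just outside that resemble those just inside. The 5 models just above the limit had means of 50.3 to 51.5 FPKM, and the 5 single-exon models just below it had means of 48.9 to 49.6 FPKM.

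The first comparison asked how growth on L-rhamnose differed from growth on cellobiose. Of the 147 models, 37 passed the test (edgeR quasi-likelihood test on all 6 libraries, Benjamini-Hochberg adjusted p under 0.05 over all 12667 tested genes), 19 higher and 18 lower on L-rhamnose. This is 25.2% of them, against 22% of all tested genes, 11% higher and 11% lower. Among the spliced models of the same level and length, 27.0% passed, 11.3% higher and 15.8% lower. The share of single-exon models called was thus near that background. The median log2 fold change was 0.02 in the single-exon models, −0.20 in the spliced models of the same level and length, and −0.0026 over all tested genes. With an L-rhamnose or cellobiose library left out, 1 library of that sugar remained, so the counts cannot show whether calls depended on single libraries. The count of 37 was 1 without L-rhamnose replicate 1 (1.15% of all tested genes), 2 without L-rhamnose replicate 2 (1.52%), 15 without cellobiose replicate 1 (8.62%) and 5 without cellobiose replicate 2 (2.47%).

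Among the models called higher, gene_13970 at scaffold 117, 44757 to 45195, had the greatest change. It has 189 coding bases and overlaps no other model. It had 44.8 and 42.2 FPKM on cellobiose, 200.1 and 157 FPKM on L-rhamnose, and 31.0 and 59.2 FPKM on xylose. Both L-rhamnose libraries were far above the other 4, and L-rhamnose minus cellobiose was a log2 change of 2.01 ± 0.32 (SE; edgeR adjusted p = 0.00938). The adjusted p by edgeR was 0.0812, 0.0610 and 0.0743 without L-rhamnose replicate 1, L-rhamnose replicate 2 and cellobiose replicate 2. The second, gene_6534 at scaffold 19, 271474 to 272074, had 46.5 and 38.5 FPKM on cellobiose, 160 and 144 FPKM on L-rhamnose, and 29.4 and 41.7 FPKM on xylose. Its L-rhamnose values again stood apart from both other sugars, by 1.81 ± 0.23 over cellobiose (log2, SE; edgeR adjusted p = 0.00522), and its adjusted p without the same 3 libraries was 0.0574, 0.0516 and 0.0506 (edgeR). The next 4 higher models lie on scaffolds 118, 17, 163 and 13, with log2 fold changes of 1.57 to 1.72.

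On the lower side, gene_13783 at scaffold 110, 70339 to 71375, spanned the widest range of all 147 models. It had 194 and 317 FPKM on cellobiose, 14.7 and 23.5 FPKM on L-rhamnose, and 1790 and 479 FPKM on xylose. No 2 groups overlap, and L-rhamnose minus cellobiose was a log2 change of −3.76 ± 0.67 (SE; edgeR adjusted p = 0.0128). Without L-rhamnose replicate 1, L-rhamnose replicate 2 and cellobiose replicate 2 the edgeR adjusted p was 0.109, 0.0843 and 0.0703. The second, gene_14368 at scaffold 91, 67469 to 68308, had 444 and 472 FPKM on cellobiose, 53.3 and 44.3 FPKM on L-rhamnose, and 767 and 157 FPKM on xylose. Its L-rhamnose values were the lowest of the 6, by −3.25 ± 0.67 against cellobiose (log2, SE; edgeR adjusted p = 0.0192), and the edgeR adjusted p without any 1 of these 4 libraries was 0.0579 to 0.125. The next 4 lower models lie on scaffolds 13, 21, 10 and 2, with log2 fold changes of −3.02 to −1.43. One of them, at scaffold 13, 39428 to 40590, had cellobiose libraries of 418 and 171 FPKM and L-rhamnose libraries of 23.5 and 49.9 FPKM. The 6 named higher models of this comparison had edgeR adjusted p of 0.0477 to 0.102 without L-rhamnose replicate 1, 0.0328 to 0.0824 without L-rhamnose replicate 2, 0.0230 to 0.0514 without cellobiose replicate 1 and 0.0342 to 0.0926 without cellobiose replicate 2. The 6 named lower models had 0.0725 to 0.176, 0.0601 to 0.125, 0.0119 to 0.117 and 0.0454 to 0.0839 in the same order, and all 12 kept their direction.

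**Figure D2:**
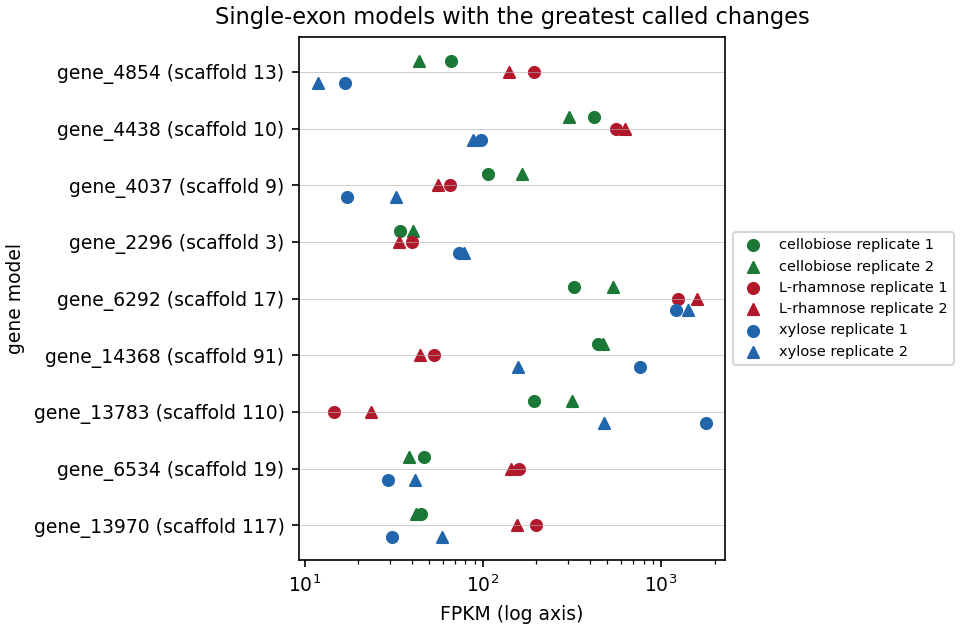
FPKM on a log axis in each of the 6 libraries for the 9 single-exon models named by identifier. These are the 2 models per direction and comparison with the greatest called changes. Circles mark replicate 1 and triangles replicate 2, with 1 colour per sugar. The L-rhamnose values of gene_13970, gene_6534 and gene_4854 lie above all others, those of gene_13783 and gene_14368 lie below, and the 2 xylose values of gene_13783 and gene_14368 lie far apart.

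Xylose against cellobiose moved few models. Of the 147, 12 passed the test (8.16%), 2 higher and 10 lower on xylose. Of all tested genes 4.21% passed, 1.66% higher and 2.55% lower. In the spliced models of the same level and length 6.19% passed, 2.34% higher and 3.84% lower. The median log2 fold change was −0.14 in the single-exon models, 0.06 in the spliced models of the same level and length, and 0.01 over all tested genes. All 12 changed at least 2-fold, and 9 of them overlap another model. DESeq2 called 28 (8 higher and 20 lower), with 7.47% of all tested genes called. All 3 sugars share 1 estimate of the variation between replicates, so leaving out a library that is not compared here also changed the count. Whether calls rested on single libraries cannot be read from the count. It was 2 without L-rhamnose replicate 1 or 2 (1.44% and 1.4% of all tested genes called) or cellobiose replicate 1 (1.14%), and 4 without cellobiose replicate 2 (1.64%). It was 18 without xylose replicate 1 or 2 (6.08% and 7.95%).

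Of the 2 models called higher on xylose, the one with the greater change was gene_6292 at scaffold 17, 267180 to 267869. It had 324 and 539 FPKM on cellobiose, 1251 and 1596 FPKM on L-rhamnose, and 1213 and 1421 FPKM on xylose. Cellobiose stood apart on the low side, with a log2 change of 1.73 ± 0.29 for xylose (SE; edgeR adjusted p = 0.0223) and 1.70 ± 0.29 for L-rhamnose (edgeR adjusted p = 0.0113). The former had an edgeR adjusted p of 0.0705, 0.0700 and 0.121 without L-rhamnose replicate 1, L-rhamnose replicate 2 and cellobiose replicate 1, and the latter 0.0677 and 0.0824 without L-rhamnose replicate 1 and 2. An opposite-strand model of 1.65 FPKM on average overlaps its 3′ end by 198 bases. The other, gene_2296 at scaffold 3, 711668 to 712487, had 34.3 and 40.6 FPKM on cellobiose, 39.9 and 34.1 FPKM on L-rhamnose, and 73.9 and 78.7 FPKM on xylose. It is the only one of the 147 called higher on xylose than on both other sugars, with 1.15 ± 0.20 over cellobiose (log2, SE; edgeR adjusted p = 0.0246) and a change from xylose to L-rhamnose of −1.19 ± 0.20 (edgeR adjusted p = 0.00728). The former did not pass without any 1 of the cellobiose or L-rhamnose libraries (edgeR adjusted p = 0.0737 to 0.171), and the latter not without L-rhamnose replicate 1 or 2 (0.0528 and 0.0570).

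On the lower side, gene_4037 at scaffold 9, 513618 to 514337, had 106 and 165 FPKM on cellobiose, 65.7 and 55.9 FPKM on L-rhamnose, and 17.4 and 32.8 FPKM on xylose. The 3 sugars did not overlap, and each pair of them passed the test, with −2.32 ± 0.35 for xylose minus cellobiose (log2, SE; edgeR adjusted p = 0.0159). This had an edgeR adjusted p of 0.0626, 0.0633 and 0.0711 without L-rhamnose replicate 1, L-rhamnose replicate 2 and cellobiose replicate 2. The other pairs, with edgeR adjusted p of 0.0436 and 0.0447, did not pass without either L-rhamnose library (0.126 to 0.193) or either cellobiose library (0.0503 to 0.227), and L-rhamnose minus xylose did not without xylose replicate 1 (0.136). It overlaps a neighbour at each end, both with means under 20 FPKM (8.63 and 17.0 FPKM). The second, gene_4438 at scaffold 10, 137412 to 138141, had 421 and 303 FPKM on cellobiose, 557 and 632 FPKM on L-rhamnose, and 98.1 and 88.6 FPKM on xylose. Both xylose values were far below the rest, with −1.83 ± 0.22 for xylose minus cellobiose (log2, SE; edgeR adjusted p = 0.00740). The next 4 lower models lie on scaffolds 13, 246, 16 and 6, with log2 fold changes of −1.80 to −1.44. Without L-rhamnose replicate 1 and 2 and cellobiose replicate 1 and 2, the 6 named lower models had edgeR adjusted p of 0.0352 to 0.103, 0.0353 to 0.103, 0.0384 to 0.265 and 0.0151 to 0.145, and 0.00586 to 0.0549 and 0.00221 to 0.0693 without xylose replicate 1 and 2. Of the lower models, gene_4438 passed in all of these.

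The widest contrast was L-rhamnose against xylose, which shares its libraries with the other 2 comparisons. Of the 147 models, 62 passed the test (42.2%), 41 higher and 21 lower on L-rhamnose. Of all tested genes 31.5% passed, 15.9% higher and 15.6% lower. In the spliced models of the same level and length 36.2% passed, and the directions were the other way round. There 14.2% were higher and 21.9% lower, against 27.9% and 14.3% of the single-exon models. The median log2 fold change was 0.17 in the single-exon models, −0.20 in the spliced models of the same level and length, and 0.01 over all tested genes. The count was 18 without L-rhamnose replicate 1 (13 higher and 5 lower, with 5.90% of all tested genes called) and 37 without L-rhamnose replicate 2 (27 higher and 10 lower, with 9.07% called). Without xylose replicate 2 it was 66, of which 36 were higher and 30 lower.

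**Figure D3:**
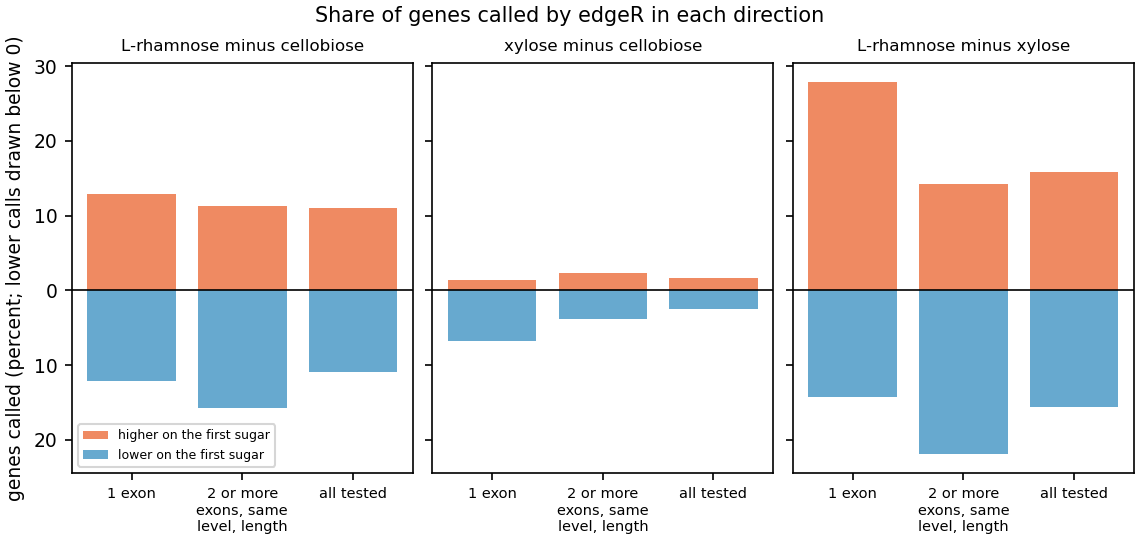
Percent of genes that passed the edgeR test in each of the 3 comparisons, with genes higher on the first sugar drawn above 0 and genes lower on it drawn below 0, for the 147 single-exon models, the spliced models weighted to the same level and length, and all 12667 tested genes. In L-rhamnose minus xylose the upper bar of the single-exon models reaches 27.9%, against 14.2% in the spliced models.

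The greatest called rise on L-rhamnose over xylose was that of gene_4854 at scaffold 13, 387522 to 388070, a model of 288 coding bases that overlaps no other. It had 66.3 and 44.0 FPKM on cellobiose, 194 and 140 FPKM on L-rhamnose, and 17.0 and 11.97 FPKM on xylose. The 3 sugars did not overlap and each pair passed the test. The log2 change was 3.38 ± 0.33 for L-rhamnose minus xylose (SE; edgeR adjusted p = 0.00172), 1.57 ± 0.29 for L-rhamnose minus cellobiose (edgeR adjusted p = 0.0147) and −1.80 ± 0.33 for xylose minus cellobiose (edgeR adjusted p = 0.0292). Without L-rhamnose replicate 1, L-rhamnose replicate 2 and cellobiose replicate 2 the second of these had an edgeR adjusted p of 0.102, 0.0664 and 0.0926. The third had 0.0766, 0.0762, 0.159 and 0.0509 without L-rhamnose replicate 1 and 2 and cellobiose replicate 1 and 2.

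The second was gene_4438, given above, with 2.53 ± 0.22 for L-rhamnose minus xylose (log2, SE; edgeR adjusted p = 0.00143). It overlaps the 5′ end of a same-strand model of 2 exons by 445 bases. That neighbour had 504 and 289 FPKM on cellobiose, 901 and 642 FPKM on L-rhamnose, and 77.6 and 72.2 FPKM on xylose, and a log2 change of 3.22 (edgeR adjusted p = 0.00172). The 2 models were thus high and low on the same sugars, and reads in the shared bases cannot be told apart.

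The next 2 models rose beside a neighbour that did not pass the test. One, at scaffold 56, 35377 to 35996, had 44.0 and 28.0 FPKM on cellobiose, 115 and 93.9 FPKM on L-rhamnose, and 20.6 and 15.3 FPKM on xylose. It exceeded its xylose level on L-rhamnose by 2.39 ± 0.32 (log2, SE; edgeR adjusted p = 0.00382), while the same-strand model of 8 exons whose 3′ end it overlaps by 248 bases had 0.71 (edgeR adjusted p = 0.187). The other, at scaffold 41, 77870 to 78367, had 51.6 and 49.5 FPKM on cellobiose, 161 and 102 FPKM on L-rhamnose, and 22.2 and 30.9 FPKM on xylose. Its change was 2.16 ± 0.29 (log2, SE; edgeR adjusted p = 0.00411), while the same-strand model of 3 exons whose 3′ end it overlaps by 229 bases had 53.6 to 58.6 FPKM in 4 libraries, 48.0 FPKM in cellobiose replicate 2 and 78.2 FPKM in L-rhamnose replicate 2, a change of 0.15 (edgeR adjusted p = 0.598). The fifth and sixth were gene_6534 and gene_13970, with 1.95 ± 0.23 and 1.84 ± 0.32 (log2, SE; edgeR adjusted p = 0.00271 and 0.00804). With L-rhamnose replicate 1 left out, that of gene_13970 was 1.68 with an edgeR adjusted p of 0.0639.

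The greatest called falls on L-rhamnose against xylose were those of gene_13783 and gene_14368, whose values are given above. L-rhamnose minus xylose was −6.04 ± 0.73 for gene_13783 (log2, SE; edgeR adjusted p = 0.00294) and −3.40 ± 0.68 for gene_14368 (log2, SE; edgeR adjusted p = 0.0119). Xylose replicate 1 carried much of both. Without it the change was −4.77 for gene_13783 and −1.82 for gene_14368, and both still passed (edgeR adjusted p = 0.000163 and 0.000999). That of gene_14368 did not pass without L-rhamnose replicate 1 or 2 (edgeR adjusted p = 0.0896 and 0.0909). The next 4 lie on scaffolds 10, 21, 14 and 10, with log2 fold changes of −2.15 to −1.56. Those on scaffolds 21 and 14 did not pass without L-rhamnose replicate 2 (edgeR adjusted p = 0.0520 and 0.0511). The first of these 4, at scaffold 10, 434768 to 435890, had 92.1 and 125 FPKM on cellobiose, 36.9 and 40.0 FPKM on L-rhamnose, and 153 and 156 FPKM on xylose, with both libraries of each sugar close together. It shares 140 bases with the 5′ end of a same-strand model of 2 exons, which was also called lower on L-rhamnose than on xylose (−1.27, edgeR adjusted p = 0.00779) and than on cellobiose (−1.35, edgeR adjusted p = 0.00938).

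Read over all 3 comparisons, 77 of the 147 models passed in none and 70 in at least 1. The latter are 47.6%, against 43.9% of the spliced models of the same level and length and 38% of all tested genes. Called higher on L-rhamnose than on both other sugars were 15 (10.2%, against 7.59% of those spliced models and 7.88% of all tested genes), and called lower than on both were 14 (9.52%, against 11.4% and 7.58%). Called lower on xylose than on both other sugars were 8 (5.44%, against 3.13% and 1.58%). Lower on cellobiose than on both was only gene_6292 (0.68%, against 0.938% and 0.553%), and 2 models were higher on cellobiose than on both (1.36%, against 1.08% and 1%), both near the background. The 2 comparisons behind each of these counts share a sugar, so the counts are not independent.

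Most models called higher on L-rhamnose than on xylose were short. Of the 39 with at most 300 coding bases, 16 were higher and 2 lower on L-rhamnose. Of the 59 with over 300 and up to 600 bases, 22 were higher and 7 lower. Of the 49 with over 600 bases, 3 were higher and 12 lower. The median log2 fold change in these classes was 0.62, 0.38 and −0.21. In the spliced models of at least 50 FPKM, 19.0% of those with at most 300 bases were higher and 16.5% lower. Of those with over 300 and up to 600 bases, 12% were higher and 20.5% lower. Higher calls thus outnumbered lower ones by little in the first of these spliced classes and were fewer in the second. Over 600 bases, 9.66% of the spliced models were higher and 31.7% lower, against 6.12% and 24.5% of the single-exon models, which are near that background. The difference between the classes was not tested, since genes are not replicates.

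The same calls also differed by overlap, a grouping chosen after the calls were seen. Of the 64 models that overlap another, 26 were higher and 4 lower on L-rhamnose than on xylose, with a median log2 fold change of 0.54. Of the 83 without overlap, 15 were higher and 17 lower, with a median of −0.11. These are 18.1% and 20.5%, against 12.8% and 26.4% of the spliced models without overlap of the same level and length and 15.9% and 16.2% of all tested genes without overlap. Of the overlapping spliced models of the same level and length 15.6% were higher and 14.0% lower, and of all tested genes with overlap 15.7% and 13.4%, against 40.6% and 6.25% of the overlapping single-exon models. Of the 783 overlapping spliced models, 234 overlap on the same strand. Among same-strand overlaps, 38.3% of 47 single-exon models were higher and 8.51% lower. The matched spliced models there had 26.4% and 12.2%, and all tested genes 18.9% and 11.9%. With an opposite-strand overlap only, 47.1% of 17 were higher and 0% lower, against 7.80% and 15.4%, and 14% and 14.2%. On L-rhamnose against cellobiose, 13 of the overlapping models were higher and 5 lower (20.3% and 7.81%, against 12.2% and 9.99% of the matched spliced models and 10.6% and 10.1% of all tested genes with overlap). Of those without overlap, 6 were higher and 13 lower (7.23% and 15.7%, against 10.4% and 18.8%, and 11.2% and 11.3%), which is near the matched share. On xylose against cellobiose, 1 of the overlapping models was higher and 8 lower (1.56% and 12.5%, against 2.04% and 3.57%, and 1.53% and 2.31%). Of those without overlap, 1 was higher and 2 lower (1.2% and 2.41%, against 2.34% and 3.65%, and 1.7% and 2.62%). Without L-rhamnose replicate 1 the counts on L-rhamnose against xylose were 7 higher and 2 lower with overlap, and 6 and 3 without, and without L-rhamnose replicate 2 they were 17 and 2, and 10 and 8. Without xylose replicate 2, 13 of the models without overlap were higher and 25 lower.

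Length and overlap go together in part. Among models with at most 300 bases, 11 of 22 with overlap were higher on L-rhamnose than on xylose and 0 lower, against 19.4% and 9.72% of the spliced models of that class. Of the 17 without overlap 5 were higher and 2 lower (29.4% and 11.8%, against 18.8% and 20.3%). Among those with over 300 and up to 600 bases, 14 of 31 with overlap were higher and 3 lower (45.2% and 9.68%, against 12% and 15.6%), and of the 28 without overlap 8 were higher and 4 lower (28.6% and 14.3%, against 12% and 22.7%). Among those over 600 bases, 1 of 11 with overlap was higher and 1 lower (9.09% each, against 9.63% and 28.5%), and of the 38 without overlap 2 were higher and 11 lower (5.26% and 28.9%, against 9.67% and 32.5%), which is near the background. In the 3 classes without overlap, from short to long, the median log2 fold change was 0.50, 0.03 and −0.39, against −0.19, −0.16 and −0.35 in the spliced models.

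**Figure D4:**
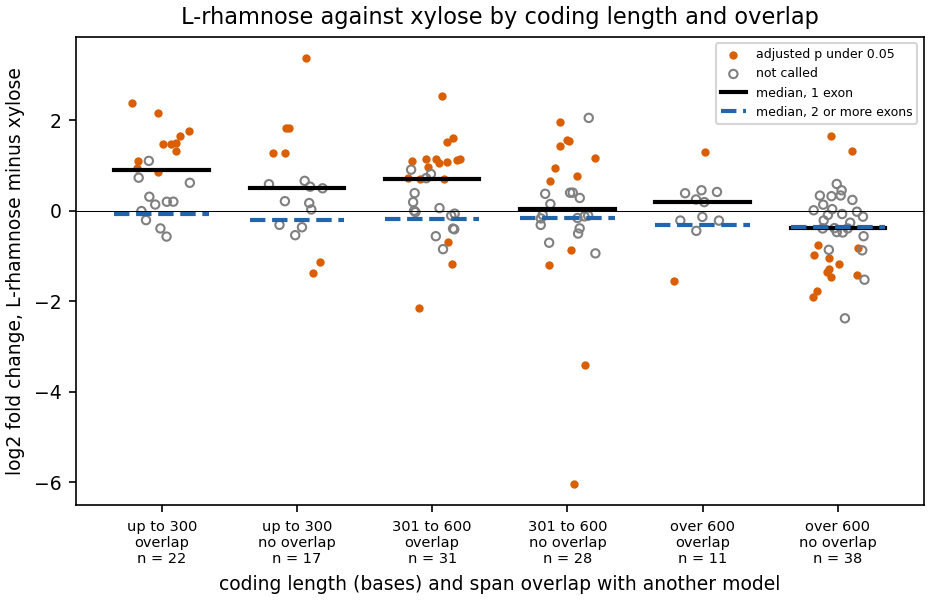
Fitted log2 fold change of L-rhamnose minus xylose for each of the 147 single-exon models, by coding length in bases and by overlap with another model, with called models filled, a solid line at the median of the single-exon models and a dashed line at the median of the spliced models in the same class. The solid line lies highest, at 0.91, in the class of at most 300 bases with overlap and meets the dashed line in the class over 600 bases without overlap.

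The kind of overlap was also read. The 27 models whose coding sequence lies at least partly in an exon of another model had 13 higher and 2 lower on L-rhamnose than on xylose. Of 315 spliced models with such an overlap, 40 were higher and 79 lower. The 37 whose UTR alone overlaps, or whose coding sequence meets no exon of the other model, had 13 higher and 2 lower as well, against 47 higher and 106 lower of 467 spliced models. These spliced counts were not weighted to level and length. The weighting matters, since for any overlap the spliced shares were 11.1% higher and 23.6% lower without it, and 15.6% and 14.0% with it. Of the 30 models at the 3′ end of a same-strand neighbour, 13 were higher and 2 lower, and of the 15 at a 5′ end, 4 were higher and 2 lower. Of the 19 whose span meets the 3′ end of an opposite-strand neighbour, 10 were higher and 0 lower. These shares by position were not set against spliced models; of all tested genes 15.9% were higher and 15.6% lower. What part reads of the neighbour have in these calls was not tested.

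A same-strand neighbour can be followed beside each model. There are 49 same-strand pairs, with 2 single-exon models that overlap each other counted from either side, of which 43 have a spliced partner, with a median shared span of 140 bases. In 47 pairs the partner was tested, and in 37 of these the log2 fold change of L-rhamnose minus xylose was above that of the partner. Both members of a pair were called in the same direction in 5 pairs and in opposite directions in 2. In 46 pairs of a single-exon model with another model and no value of 0, the median log2 ratio of the model over its partner was 0.56 and 0.71 with cellobiose, 1.28 and 0.71 with L-rhamnose, and 0.28 and 0.21 with xylose. The ratio was higher in both L-rhamnose than in both xylose libraries in 30 of the 46 pairs and lower in 6. The partners' own median was 47.5 and 61.9 FPKM on L-rhamnose and 56.3 and 59.1 FPKM on xylose, so the groups overlap, while the models had 114 and 92.3 FPKM on L-rhamnose and 60.9 and 56.5 FPKM on xylose.

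**Figure D5:**
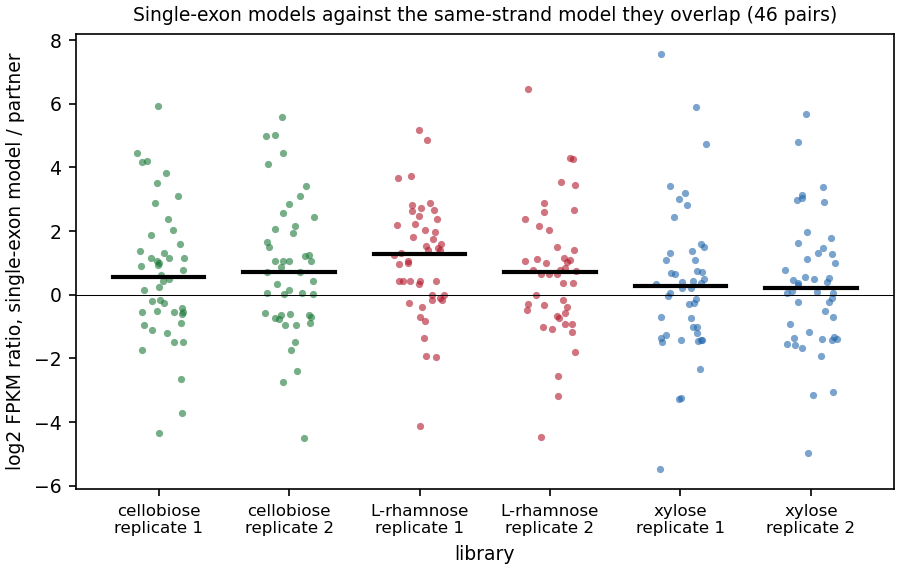
Log2 ratio of the FPKM of a single-exon model over that of the same-strand model it overlaps, for 46 pairs in each of the 6 libraries, with 1 point per pair and a bar at the median. The medians are lowest in the xylose libraries, at 0.28 and 0.21, and highest in L-rhamnose replicate 1, at 1.28, while L-rhamnose replicate 2 lies level with cellobiose replicate 2.

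In 20 opposite-strand pairs the medians of the libraries overlapped between sugars. The median log2 ratio of the model over its partner was 0.93 and 1.18 with cellobiose, 1.01 and 0.69 with L-rhamnose, and 0.71 and 0.98 with xylose. Pair by pair, the ratio was lower in both xylose than in both cellobiose libraries in 11 of the 20 and higher in 3, and higher in both L-rhamnose than in both xylose libraries in 10 and lower in 6.

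Calls were also counted by annotated UTR. Of the 124 models with a UTR, 55 (44.4%) passed on L-rhamnose against xylose, against 38.8% of the spliced models and 30.9% of all tested genes with a UTR. Of the 23 without one, 7 (30.4%) passed, against 40.8% and 32.8%, which is near the share of all tested genes. On xylose against cellobiose, 12 of the 124 with a UTR passed (9.68%, against 5.71% and 4.05%) and 0 of the 23 without one (against 7.55% and 4.56%). No difference between these groups was tested.

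In 4 places 2 of the 147 models are direct neighbours. At scaffold 59, the models at 113498 to 113843 and 113763 to 114760 overlap on opposite strands by 81 bases. The first had 54.0 and 37.9 FPKM on cellobiose, 146 and 89.97 FPKM on L-rhamnose, and 44.3 and 31.1 FPKM on xylose. The second had 64.7 and 50.8 FPKM on cellobiose, 144 and 136 FPKM on L-rhamnose, and 54.9 and 47.9 FPKM on xylose. Both were highest on L-rhamnose, and their log2 changes over xylose were 1.49 and 1.30 (edgeR adjusted p = 0.0166 and 0.00539). With L-rhamnose replicate 1 left out, the first was 1.13 with an edgeR adjusted p of 0.104.

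At scaffold 16, the neighbours on opposite strands behaved differently. The model at 283937 to 284935 had 127 and 116 FPKM on cellobiose, 77.5 and 71.5 FPKM on L-rhamnose, and 86.7 and 100.1 FPKM on xylose. The model at 284936 to 285821 had 216 and 184 FPKM on cellobiose, 183 and 145 FPKM on L-rhamnose, and 72.3 and 62.4 FPKM on xylose. The first was lower on L-rhamnose than on cellobiose (−0.73, edgeR adjusted p = 0.0244) and the second was lower on xylose than on cellobiose (−1.45, edgeR adjusted p = 0.0116). The first did not pass without any 1 of the L-rhamnose or cellobiose libraries (edgeR adjusted p = 0.0930 to 0.121), and the second not without cellobiose replicate 1 (0.0761). The pair on scaffold 19 had the same sign in both comparisons with L-rhamnose, and the pair on scaffold 1 passed in none.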

How the data were processed

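Messenger RNA levels were measured by RNA sequencing in 6 libraries, 2 for each of 3 sugars, and the replicate numbers are those of the labels. For each library the authors deposited 1 table with the expected count and the FPKM of each gene model (column names per the file headers). The submitters' processing notes name HISAT, Bowtie2 and RSEM, with no versions, and library preparation is described only as a standard protocol. Settings of the aligner and counter, strand included, and the source of the annotation were not given in the labels or headers. A model that a table does not list was taken as 0. The length in each deposited table equals the coding length, and the deposited FPKM equals the expected count over the coding length less 36 bases and over 1 scale per library.

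Exon, coding and UTR features were read from the deposited annotation. Spans that share at least 1 base were called overlapping. The tables of another strain's RefSeq annotation matched 0 identifiers and were not used. No genome was used, so no sequence is given.

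The expected counts were rounded to whole numbers and fitted over all genes with edgeR 4.0.16 (R 4.3.3): filterByExpr, TMM normalization and the quasi-likelihood test on all 6 libraries with no covariate, with Benjamini-Hochberg adjustment over 12667 genes per comparison. The common biological coefficient of variation was 0.218. The SE of a log2 fold change was taken as its size over the square root of F. The scripts were tested on simulated data with known changes. DESeq2 1.42.0, limma 3.58.1 on log2(FPKM + 1) and log2(FPKM + 0.1), other scalings and filters, the replicate number as a block and leaving out each library were the alternatives.

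Spliced models under the same rule were divided at mean FPKM of 100, 200, 400 and 800 and at coding lengths of 300, 600, 900, 1200 and 1800 bases, and weighted to the single-exon models. Such shares are descriptions, since genes are not replicates. Named by identifier are the 2 called models per direction and comparison with the greatest log2 fold change whose libraries do not overlap in CPM. By position are the next 4, the 10 highest, the 5 steadiest, the 5 on each side of the level limit, and neighbouring models. Models named outside this rule for their wide replicates, on scaffolds 84 and 130, were chosen after their values were seen. The models and all groupings were chosen with earlier results of these data known. The grouping by overlap and the recomputed level per whole coding length were added after the data were seen.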

Additional observations from a re-analysis of the deposited data

How the results depend on the processing

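Same-numbered libraries of different sugars showed no tendency to deviate together, and whether libraries shared a batch was not tested. The deviations of same-numbered libraries from their group means correlated at −0.20 between cellobiose and L-rhamnose, −0.12 between cellobiose and xylose and −0.09 between L-rhamnose and xylose. With the replicate number as a block, the models called were 23, 8 and 52 on L-rhamnose against cellobiose, xylose against cellobiose and L-rhamnose against xylose, in place of 37, 12 and 62. Leaving out 1 library at a time gave 1 to 49, 2 to 18 and 18 to 66 calls. The difference in percentage points between single-exon models and spliced models of the same level and length on xylose against cellobiose was 1.98, and −1.93 (without L-rhamnose replicate 1) to 3.14 when a library was left out.

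On xylose against cellobiose, DESeq2 called 28 (8 higher and 20 lower, a difference of 8.55 points). In the same comparison edgeR with library sizes only called 19, limma called 19 with either pseudocount, and a fit on the 2 sugars alone called 2. The counts in this section also depend on how many of all tested genes a setting calls. They are therefore not read as results about the single-exon models. Scaling by library size only shifted the median change over all genes (log2) by −0.12 on xylose against cellobiose and by 0.15 on L-rhamnose against xylose. A minimum of 25 FPKM gave 244 models, 59 calls on L-rhamnose against cellobiose and 2.61% of all FPKM (2.27% on average for the 147). A minimum of 100 FPKM gave 68 models, 13, 6 and 29 calls, a difference of −9.30 points on L-rhamnose against cellobiose (−1.87 for the 147) and 1.76% of all FPKM. A level of 50 FPKM on every sugar left 93 models, and 1 coding segment in place of 1 exon gave 227. Without overlapping models, 83 were left, with 19, 3 and 32 calls, and the difference on xylose against cellobiose was −2.38 points.

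Each of the 32 named changes was fitted under 15 alternative settings, which gave 480 values. Of these values, 409 stayed called, 71 did not pass and 0 changed sign. Most of the 32 lost their call under at least 1 setting. The cause of these changes was not tested. With 2 libraries per sugar, changes of models whose replicates lie apart are hard to detect.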
